A study of Mus musculus with 7 samples.

Results

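The members described here are control probes of a custom Agilent small RNA array that differ from another probe of the array by a single base. They were taken as every spot whose probe name carries the mark 1MM, which gave 281 oligonucleotides with 1 spot each among the 13935 spots of an array. The 281 belonged to 13 parent probes, each printed in 7 spots, and the array's design marked them as negative controls, where they made up 281 of 358 spots. The other 77 were spots with no target. Every position of the target-matching part of each parent was changed in turn, and an added G at the 5′ end of most parents was never changed. The array held 1874 probes that were no controls.

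The study measured small RNA in CD4 T cells of Balb/c mice that carry DO11.10, a transgenic T cell receptor for an ovalbumin peptide. Naive cells (2 arrays) were sorted as CD25- CD44 low from DO11.10 Rag2+/+ mice and were not transferred. Activated cells were sorted as CD44 high on day 5 after DO11.10 Rag2-/- donor cells had been moved into a WT Balb/c host (2 arrays) or an sOVA host (3 arrays). All hosts received, intravenously 24 h after the transfer, LPS-activated dendritic cells grown from bone marrow and loaded with Ova peptide, per the labels' protocol. The donor genotype thus differed between naive and activated cells along with activation and transfer, and their parts cannot be told apart. The titles call the WT group OVA immunized and the other group sOVA immunized, and activation is in vitro by the series title but in vivo by the design text. Mice were 6 to 8 weeks old and their spleens and lymph nodes were pooled. Whether the replicates of a group came from separate pools is not given, and p-values therefore measure only the spread between these samples, possibly a technical one.

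A microarray probe captures its target by base pairing, and a mismatched base weakens the duplex. How much signal a mismatched probe keeps shows how well the array separates small RNAs that differ by a single base, as members of a miRNA family often do. A miRNA is grouped by its seed, bases 2 to 8 from its 5′ end, by which it pairs with messenger RNAs. Among the targets here, let-7a and miR-16 are abundant in many tissues, miR-16 being known for restraint of the cell cycle. miR-21 is known to rise when T cells are activated, and miR-26a, miR-27a and miR-30c are expressed in many cell types.

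The targets were named by matching their sequence to RefSeq's mature miRNAs (assembly GRCm38.p6). The mature sequences that matched are shown because the mismatch positions below refer to them, with the seed in capitals.

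let-7a-5p: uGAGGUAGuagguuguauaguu
miR-16-5p: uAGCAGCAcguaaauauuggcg
miR-21a-5p: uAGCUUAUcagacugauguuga
miR-26a-5p: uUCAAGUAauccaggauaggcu
miR-27a-3p: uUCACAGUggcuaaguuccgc
miR-30c-5p: uGUAAACAuccuacacucucagc
miR-7b-5p: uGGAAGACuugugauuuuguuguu

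No pair of these miRNAs shares a seed. The loci given are those of the matched RefSeq entries on GRCm38.p6 and may not be complete. By these entries, let-7a-5p lies in the miRNA gene Mirlet7a-1 at chr13:48538239-48538260 on the minus strand. miR-16-5p lies in Mir16-1 at chr14:61631936-61631957 (minus) and in Mir16-2 at chr3:69009918-69009939 (plus). miR-21a-5p lies in Mir21a at chr11:86584120-86584141 (minus), and miR-27a-3p in Mir27a at chr8:84208727-84208747 (plus). miR-26a-5p lies in Mir26a-1 at chr9:119031811-119031832 (plus) and in Mir26a-2 at chr10:126995543-126995564 (plus). miR-30c-5p lies in Mir30c-1 at chr4:120769584-120769606 (minus) and in Mir30c-2 at chr1:23291714-23291736 (plus). miR-7b-5p lies in Mir7b at chr17:56243017-56243040 (plus). The target of a further parent, UC1004876, carries the seed of miR-30c-5p and matched no entry whole. The targets of UC1004653, UC1004657 and UC1004662 matched no miRNA. By textbook knowledge their letters are those of the spliceosomal RNAs U1, U2 and U6, names that no table used here gives. The targets of the remaining parents, UC1005108 and UC1005110, are not named here.

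The parent probes are shown because each mismatch is counted within them. Each reads 5′ to 3′, and each ends in a tail of 10 T.

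UC1004653: ctcccctgccaggtaagtattttttttttt
UC1004657: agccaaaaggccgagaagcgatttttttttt
UC1004662: tatggaacgcttcacgaatttttttttttt
UC1004682 (let-7a-5p): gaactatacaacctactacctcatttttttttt
UC1004771 (miR-16-5p): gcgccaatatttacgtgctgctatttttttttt
UC1004818 (miR-21a-5p): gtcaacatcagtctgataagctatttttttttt
UC1004842 (miR-26a-5p): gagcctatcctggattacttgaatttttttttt
UC1004848 (miR-27a-3p): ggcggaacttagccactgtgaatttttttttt
UC1004880 (miR-30c-5p): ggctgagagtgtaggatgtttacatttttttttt
UC1004734 (miR-7b-5p): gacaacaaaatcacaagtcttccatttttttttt

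Mismatch probes are named below by the parent's base, its position and the new base. Positions count from 1 at the 5′ end of the target-matching part of the probe, without the added G. Since the probe is the reverse complement of its target, the last probe position faces base 1 of the target. The mismatch probes on which the results turn follow, with the changed base in capitals.

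miR-16-5p A22T: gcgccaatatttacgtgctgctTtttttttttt
miR-16-5p G16C: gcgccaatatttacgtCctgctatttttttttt
miR-16-5p T11A: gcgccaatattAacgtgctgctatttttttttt
miR-16-5p A12T: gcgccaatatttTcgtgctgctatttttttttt
miR-21a-5p A22T: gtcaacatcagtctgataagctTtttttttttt
miR-21a-5p G10C: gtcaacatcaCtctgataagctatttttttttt
miR-21a-5p T11A: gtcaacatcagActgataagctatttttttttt
miR-21a-5p C12G: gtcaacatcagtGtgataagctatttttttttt
UC1004662 T1A: Aatggaacgcttcacgaatttttttttttt
UC1004662 G9C: tatggaacCcttcacgaatttttttttttt
UC1004657 A8T: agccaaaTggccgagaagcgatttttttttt
UC1004657 G9C: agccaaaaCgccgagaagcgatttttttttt
miR-30c-5p C2G: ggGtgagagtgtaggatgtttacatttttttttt

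The design used 4 base changes, all of them to the complementary base. A was changed to T in 88 probes, C to G in 70, T to A in 66 and G to C in 57. None of the 281 mismatches was a G:T or G:U wobble pair, so wobble pairs could not be compared with other mismatches here.

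Signal was the mean pixel intensity of a spot minus the median of its local background, and each mismatch probe was expressed within an array as a percent of the mean of its parent's spots. Parents were used where at least 50% of their spots were well above background on all 7 arrays, which held for 10 of 13. Those 10 had 215 mismatch probes. No spot was saturated, and 2 mismatch spots of 1967 over all arrays were left out as outliers by the scanner software's call. Spots of a detected parent varied with a coefficient of variation of 0.704% to 15.7%. A mismatch probe has no second spot on its array, so its error is the spread over arrays.

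The arrays differed in brightness. miR-21a-5p was the brightest parent, with a background-subtracted signal of 24040 and 26068 in naive cells, 188786 and 62563 in cells from WT hosts, and 144323, 163295 and 27930 in cells from sOVA hosts. miR-16-5p was the next, at 73206 and 91699, then 50947 and 17191, then 79889, 93750 and 9661 in the same order. The last array of each activated group, WT host replicate 2 and sOVA host replicate 3, was thus the dimmest of its group for these parents. The same held for every other detected parent but UC1004653. That parent read 11900 on WT host replicate 2, against 11871 on replicate 1. On sOVA host replicate 3 it read 16552, against 16640 and 11123 on replicates 1 and 2. Both dim arrays lay in the same row of the slide as naive replicate 2. UC1004662 ranked 3 in brightness, between 30271 and 54545. The other detected parents had mean signals of 4022 (UC1004657) to 24812 (let-7a-5p). An empty negative control spot had a median signal that equalled 0.00347% to 0.814% of a parent, depending on the parent and array, and mismatch values near or below that level carry no order.

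As a check of the labelled cell type, miR-142a-3p, miR-142a-5p, miR-155-5p and miR-181a-5p, known from lymphocytes, were detected on all 7 arrays, with lowest signals of 678 to 2604. miR-150-5p was not matched to a probe and is not analysed here, nor is liver miR-122-5p. miR-451a, a miRNA of red blood cells, was detected on all arrays at 652 to 6082, whereas miR-144-3p, from the same cells, was detected on none. miR-223-3p of myeloid cells was detected on 5 arrays, at up to 2282, and the 4 epithelial markers were detected on 1 to 5 arrays, at up to 381. Their part in the results below was not tested.

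The 215 probes covered nearly the whole range from no signal to full signal. By the median over the 7 arrays, 53 kept less than 1% of the parent's signal, 108 kept less than 10%, 43 kept at least 50% and 10 kept at least 90%. Of the 215, 140 were well above background on all arrays and 35 on none. A single-base change therefore left a measurable signal more often than not, including on probes that the array's design marks as negative controls. Of the 215, 4 exceeded 100% by their median, all of them with an A changed at or next to the 3′ end of the target-matching part. These were let-7a-5p A22T (98.2% to 114%), miR-16-5p A22T, miR-26a-5p A21T (92.6% to 107%) and miR-26a-5p A22T (99.96% to 105% on the 6 arrays where it was used).

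Mismatches at the ends of the duplex kept more signal than mismatches inside it. Within each array and parent, the median percent over the 3 positions at either end was set against that over the positions between them. The ends kept 32.1 ± 2.89 percentage points more (SD, n = 7 arrays). The size depends on how many positions count as an end, being 49.3 points with 2 and 14.7 with 5. The difference was 36.0 and 35.4 points in naive cells, 28.7 and 30.2 in cells from WT hosts, and 32.3, 32.5 and 29.3 in cells from sOVA hosts. It was above 0 on 7 of 7 arrays, with p = 0.0156 in an exact two-sided sign-flip test over arrays, the smallest p that 7 arrays allow, and 0.0234 after Benjamini-Hochberg adjustment over 3 position and base comparisons. The arrays share the same probes, so this test speaks for these sequences only. All 10 parents had the same direction, from 2.36 points for UC1004657 to 63.7 for miR-26a-5p. Of 60 end probes, 28 kept at least 50% and 2 kept less than 1%, against 15 and 51 of 155 interior probes.

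Counted along the target, the median over the 7 parents with a miRNA seed, UC1004876 included, fell step by step from the miRNA's 5′ end inwards. A mismatch at base 1 left a median over parents of 95.8% (90.6% to 98.8% over the arrays). At base 2 the median was 62.6%, at base 3 it was 26.7%, at base 4 it was 7.92% and at base 5 it was 3.32%. The ranges over the 7 arrays of these neighbours did not overlap. Single parents did not all follow these steps, since the lowest parent kept 0.155% at base 4 and 2.23% at base 5. Base 1 was U in all 7 targets, so at that position the place and the base change cannot be told apart. From the other end, which was counted along the probe because the targets differ in length, the medians were 77.1% at probe position 1, 25.4% at position 2, 14.6% at position 3 and 6.03% at position 4. Each of these was lower than the median at the matching distance from the target's 5′ end. Their difference was not tested.

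Between the ends no smooth course was seen. Base 7 of the target, inside the seed, had a median of 0.489% and base 11 of 0.809%, while bases 13 and 16 had 8.92% and 11.8%. The pooled stretches were closer together, at 5.98% for the seed (3.57% to 7.19% over arrays), 6.44% for bases 9 to 13 (2.53% to 7.83%) and 8.62% for bases 14 to 19 (5.87% to 11.2%). Those ranges overlapped. Within the seed, the medians of single parents ran from 0.838% to 51.9%.

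The sides of the probe did not differ in a way that held across parents. The last of 3 near-equal parts of the probe, which faces the 5′ part of the target, kept 1.44 ± 1.42 points more than the first (SD, n = 7 arrays), with p = 0.0625 by the exact two-sided sign-flip test. Only 4 of 10 parents were above 0, the range being -19.0 points for miR-16-5p to 36.1 for miR-26a-5p. Without UC1004653, a choice made after seeing the data, the mean turned to -1.66 points.

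The signal also differed by which base was changed. At interior positions, probes that lost a G or C kept less than probes that lost an A or T. The difference was -11.1 ± 1.28 points (SD, n = 7 arrays), between -12.2 and -9.17 on every array, with p = 0.0156 by the same exact test and 0.0234 after adjustment. None of the 10 parents was above 0, with values from -34.7 points for miR-16-5p to -0.084 for miR-21a-5p, whose interior values were all low. Among the 4 changes, A to T left a median of 9.39% (7.40% to 10.4% over arrays, 44 probes), T to A 8.00% (5.31% to 9.87%, 42 probes), C to G 3.67% (2.45% to 4.92%, 32 probes) and G to C 0.298% (0.215% to 1.38%, 37 probes). The ranges of the first 2 overlapped, that of C to G lay below both, and that of G to C lay below all others. These medians cover 10, 9, 8 and 9 parents in the same order, since not every parent held each base inside. UC1004876 and miR-30c-5p, both low inside, had no interior C. A changed to T gave the highest median of the changes tried in 10 of 10 parents. G changed to C gave the lowest in 8 of the 9 parents with an interior G. For miR-21a-5p, UC1004657, UC1004876 and miR-30c-5p the G to C medians were 0.021%, 0.298%, 0.134% and 0.192%. An empty spot equalled up to 0.034%, 0.334%, 0.732% and 0.778% of these parents in the same order. The lowest rank of G to C in them is therefore not firm, and the median of 0.298% over parents has the same limit. Of the interior G to C probes, 24 of 37 kept less than 1%, against 4 of 44 for A to T, 13 of 42 for T to A and 10 of 32 for C to G.

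Neighbouring positions in a probe show how far this goes. In UC1004657, A8T kept 23.9% and 20.8% in naive cells, 26.1% and 15.6% in cells from WT hosts, and 19.7%, 23.3% and 14.5% in cells from sOVA hosts. The next probe, G9C, stayed between 0.454% and 0.724% on all 7. In miR-16-5p, G16C kept 0.339% to 0.626%, while T15A and C17G on either side of it kept 15.1% to 26.0% and 16.8% to 31.2%. G16C faces base 7 of miR-16-5p, within the seed. These pairs were chosen after their values were seen.

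Parents differed widely. UC1004653 kept signal with every mismatch, and its 14 interior probes had a median of 46.4% and 44.8% in naive cells, 40.4% and 42.5% in cells from WT hosts and 44.2%, 42.0% and 39.2% in cells from sOVA hosts. No probe of this parent fell below 26.3% by its median, which was that of G8C, and all 20 were well above background on all arrays. UC1004662, of the same length, had an interior median of 0.162% to 0.205% over the 7 arrays, and UC1004657 of 0.454% to 0.724%. The 3 parents of this kind thus spanned the range of the whole set.

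Of the miRNA parents, miR-16-5p was the most tolerant, with an interior median of 28.3% and 30.7% in naive cells, 38.4% and 43.2% in cells from WT hosts, and 40.6%, 40.5% and 41.4% in cells from sOVA hosts. Its probes at the middle of the duplex, T11A and A12T, kept 39.4% to 56.5% and 35.9% to 54.5%. Its A22T probe, whose mismatch faces base 1 of the target, was brighter than the parent on every array and was the only one of the 215 to be so. It read 118% and 116% in naive cells, 123% and 122% in cells from WT hosts, and 118%, 119% and 106% in cells from sOVA hosts.

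Among the detected parents with a matched miRNA, miR-21a-5p was the opposite. Its interior median was 0.438% and 0.269% in naive cells, 0.530% and 0.552% in cells from WT hosts and 0.640%, 0.477% and 0.524% in cells from sOVA hosts. The central probes G10C and T11A kept 0.00285% to 0.0330% and 0.00758% to 0.0453% and were well above background on no array. An empty spot equalled 0.00347% to 0.0341% of this parent, so these values have no order. C12G, next in the row, kept 0.708% to 1.01% and was well above background on all arrays. At the end of the probe, A22T kept 88.7% and 93.4% in naive cells, 91.9% and 89.8% in cells from WT hosts, and 98.8%, 95.8% and 98.8% in cells from sOVA hosts.

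UC1004662 had a like pattern. T1A kept 95.7% to 103%, and G9C 0.0161% to 0.0342%, beside 0.0132% to 0.0440% for an empty spot. The middle probes kept 0.169% to 0.222% (C10G) and 0.0370% to 0.0766% (T11A). G9C and T11A were well above background on no array and C10G on 3.

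The other detected parents with a matched miRNA lay between. Interior medians were 16.3% to 27.7% over the arrays for miR-26a-5p, 5.91% to 9.33% for let-7a-5p, 4.18% to 8.92% for miR-27a-3p and 0.916% to 1.92% for miR-30c-5p. UC1004876 had 0.135% to 1.75%, with a median over arrays of 0.274%, below the 0.524% of miR-21a-5p. It was above miR-21a-5p only on WT host replicate 2 and sOVA host replicate 3. In let-7a-5p all 22 mismatch probes were well above background on all arrays, and none kept less than 1%. let-7 miRNAs are a family whose members differ by few bases, but which member a signal came from was not tested.

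Interior percents were set beside the brightness of the parents. The 5 brighter parents had interior medians of 8.00% and the 5 dimmer ones of 1.28%, as medians over parents of the medians over arrays, and the difference within arrays was 6.64 ± 0.921 points (SD, n = 7 arrays). Over the 10 parents, Spearman's rho of the interior percent was 0.067 with mean log2 signal, 0.384 with the GC percent of the target and 0.026 with its length, and Pearson's r with log2 signal was 0.191. These are descriptions of 10 sequences read on the same arrays. The difference by brightness rested on which parents fell on either side: it was 21.5 points without miR-21a-5p and 3.18 without UC1004653, and it turned to -8.92 points when all parents with a signal above 0 were used.

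The 3 parents not detected on all arrays had 66 mismatch probes, of which 5 were well above background on any array. Only 1 of them was so on all 7, the A14T probe of miR-7b-5p, whose mismatch faces base 10 of the target. The miR-7b-5p parent itself was well above background on no array, at 23.2 or less. Probe A14T read 2689 and 3496 in naive cells, 6233 and 2843 in cells from WT hosts, and 1930, 2302 and 1354 in cells from sOVA hosts. No fold over the parent is given, since the parent was at background. The highest other mismatch probe of that parent read at most 17.8. The changed base makes the probe identical to UC1004728, a probe that is no control and matches miR-7a-5p without mismatch. The probe is shown with its changed base in capitals, above the mature miR-7a-5p with its seed in capitals, because the 2 miRNAs share that seed and differ in their common length by U10A alone (miR-7b-5p base first, counted from the miRNA's 5′ end).

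miR-7b-5p A14T: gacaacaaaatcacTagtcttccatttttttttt
miR-7a-5p: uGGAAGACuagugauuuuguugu

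The A14T spot had 93.0% to 105% of the mean of the 7 spots of UC1004728 on the same array, at most 1.03 SD of those spots away. It was the only one of the 281 mismatch probes that equals a probe that is no control or that matches another miRNA of the table used here without mismatch.

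The percent of parent was then compared between the groups of cells. The median over parents of the interior percent was 3.39% and 2.55% in naive cells, 3.34% and 4.72% in cells from WT hosts, and 5.00%, 4.32% and 5.42% in cells from sOVA hosts. The lowest activated array, WT host replicate 1, lay below the higher naive one, so the groups overlapped. Activated arrays were 1.59 points above naive ones, 4.56% ± 0.791 (SD, n = 5) against 2.97% ± 0.593 (SD, n = 2), with p = 0.0952 in an exact two-sided permutation test over 21 arrangements, whose smallest p is 0.0476, and 0.2 after adjustment over 4 comparisons. The sOVA host arrays, at 4.91% ± 0.554 (SD, n = 3), were 1.94 points above naive (exact permutation p = 0.1, the smallest this design allows, adjusted 0.2). The WT host arrays, at 4.03% ± 0.975 (SD, n = 2), were 1.06 points above naive (exact permutation p = 0.667, smallest possible 0.333, adjusted 0.667). The hosts differed by 0.886 points (sOVA minus WT, exact permutation p = 0.3, smallest possible 0.1, adjusted 0.4). Without both dim arrays the difference of activated and naive was 1.25 points (exact permutation p = 0.3). On every array the value compared was the midpoint of the interior medians of miR-27a-3p and miR-30c-5p, the parents in the middle of the order. For both of these, activated and naive arrays overlapped. Without UC1004653 the value was that of miR-30c-5p alone, and activated and naive differed by 0.357 points. Without miR-21a-5p it was that of miR-27a-3p alone, and they differed by 2.82. Leaving out UC1004653 or miR-21a-5p, the difference of sOVA host and naive was 0.411 and 3.48, respectively. That of WT host and naive was 0.275 and 1.84 without these parents, 0.369 without WT host replicate 2, 1.75 without WT host replicate 1 and 0.639 without naive replicate 2. Between the hosts it was 0.136 and 1.64 without these parents, 0.197 without WT host replicate 1 and 1.58 without WT host replicate 2. None of the 4 differences, with all arrays and all detected parents used, passed a threshold of 0.05. When all parents with a signal above 0 were used, activated and naive differed by 2.07 points (exact permutation p = 0.0476, adjusted 0.190). All comparisons with naive cells share the same 2 arrays. Within row 1 of the slide, naive replicate 1 at 3.39% stood against 3.34%, 5.00% and 4.32%. In row 2, naive replicate 2 at 2.55% stood against 4.72% and 5.42%. With labels permuted within rows only, a test added after seeing the data, the mean difference of activated and naive within rows was 1.68 points (exact permutation p = 0.167 over 12 arrangements). It was 0.831 points in row 1 and 2.52 in row 2.

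Counted by probe, 86 of the 215, a share of 40%, kept a higher percent on every activated array than on either naive array, and 32, a share of 14.9%, a lower one. The probes of a parent share its target and its denominator, so they are no independent observations. The counts include probes at background, since 35 of the 215 were well above background on no array. An empty spot equalled 0.0339% and 0.0273% of UC1004876 on naive arrays and 0.0791% to 0.732% on activated ones. For miR-21a-5p it was 0.0341% and 0.0308%, and 0.00347% to 0.0289%. The part of this level in the counts was not tested. By place, of 155 interior probes, 74 were higher and 13 lower, and of 60 end probes, 12 were higher and 19 lower. At probe positions 1 and 2, none of 20 was higher and 10 were lower. Without both dim arrays, 88 of 213 probes read on all arrays were higher and 39 lower, and of the 155 interior ones 74 and 21.

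By parent, the interior median was higher on every activated array for 5 parents, namely miR-16-5p, miR-26a-5p, let-7a-5p, miR-21a-5p and UC1004876, and lower on every one for UC1004653 and UC1004662. By probe, miR-16-5p had 18 of 22 higher and 1 lower, miR-26a-5p 16 of 22 higher and 2 lower, and let-7a-5p 15 of 22 higher and 4 lower. UC1004662 had 2 of 20 higher and 13 lower, and UC1004657 0 of 21 higher and 6 lower.

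For miR-26a-5p the interior percent was 16.9% and 16.3% in naive cells, 23.9% and 25.7% in cells from WT hosts, and 24.4%, 22.2% and 27.7% in cells from sOVA hosts. The parent's own signal moved the other way, at 36867 and 44550, then 8176 and 1757, then 17138, 21081 and 993. For let-7a-5p the interior percent was 7.12% and 5.91%, then 7.93% and 9.05%, then 8.63%, 8.00% and 9.33%, beside parent signals of 42230 and 49909, then 24318 and 6427, then 19550, 27498 and 3752. In both, the groups did not overlap in either measure, and the part of the signal level in the percent was not tested. For miR-16-5p, sOVA host replicates 1 and 2 had parent signals of 79889 and 93750, beside 73206 and 91699 in naive cells. Their interior percents were 40.6% and 40.5%, beside 28.3% and 30.7%. For UC1004876, whose parent fell to 1104 on the dimmest array, the interior percent of 1.75% there stood beside a level of empty spots of up to 0.732%.

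The C2G probe of miR-30c-5p was lower on every activated array. It kept 72.2% and 67.0% in naive cells, 19.2% and 16.3% in cells from WT hosts, and 32.7%, 25.4% and 17.5% in cells from sOVA hosts. The mismatch of C2G faces base 22 of the miRNA. G1C beside it kept 74.6% to 78.5% on all 7 arrays with no such separation. T3A on the other side kept 24.3% and 18.8% in naive cells, 13.6% and 12.4% in cells from WT hosts, and 18.2%, 14.6% and 13.1% in cells from sOVA hosts, again lower on every activated array. G4C overlapped, at 4.81% and 3.60% in naive cells against 2.22% to 3.71%. These probes were chosen after their values were seen.

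Levels of the mismatch probes were lastly tested with limma as if they were ordinary probes. The fit covered the 573 probes that passed detection, 172 of them mismatch probes and 10 parents. Values were log2 signals scaled to each array's 75th percentile. Between WT host and naive, limma called 90 of the 573 at an adjusted p under 0.05, a share of 15.7%. Higher calls made up 10.6% of all tested probes and lower calls 5.06%. Of the mismatch probes, 19 of 172 were called, 17 higher and 2 lower in WT host cells, and 1 parent. Between sOVA host and naive, limma called 107, a share of 18.7%, with 12.2% higher and 6.46% lower. They included 30 of 172 mismatch probes, 17 higher and 13 lower, and 2 parents. The median log2 difference was 0.15 over the mismatch probes and 0.21 over all tested probes in the first comparison, and 0.23 and 0.05 in the second. With the slide row as a block limma called 201 and 209 probes, among them 74 and 64 mismatch probes. Between the hosts limma called 0 of 573, a share of 0%, and 1 mismatch probe and 0 parents had an unadjusted p under 0.05.

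Mismatch probes of miR-21a-5p rose with their parent in both comparisons. Of its 22, 5 did not pass the detection filter, and 3 of the 17 tested were not well above background on all arrays and so passed only through a group in which they were high. All 14 that were well above background on every array rose. The parent rose by 3.35 on the log2 scale in WT host cells (SE 0.40, limma adjusted p = 0.00147) and by 2.74 in sOVA host cells (SE 0.37, adjusted p = 0.00258). Those 14 mismatch probes had a median of 3.80 (2.54 to 4.36) and of 3.21 (2.18 to 3.80), respectively. Every mismatch probe called higher in either comparison was of miR-21a-5p. The parent was called under every alternative tried in both comparisons, with adjusted p up to 0.0248 in WT host cells and up to 0.0449 in sOVA host cells, both with an array left out.

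UC1004876 fell by 1.71 in sOVA host cells (SE 0.48, limma adjusted p = 0.0493), and 11 of its 13 tested mismatch probes were called lower. Most of the 13 were not well above background on all arrays. Those passed the filter only through a group in which they were high, so their calls are no support. Of its 22 mismatch probes, 5 were well above background on every array, and 4 of those fell, with a median of -1.63 over the 5. In WT host cells UC1004876 had -1.48 (adjusted p = 0.105). There 1 of the 13 was called lower, and 0 of the 5. With the slide row as a block the parent's adjusted p in WT host cells was 0.0275, and without sOVA host replicate 3 it was 0.0152. Over all alternatives it ran from 0.0152 to 0.490. The call on the parent in sOVA host cells was lost without naive replicate 1 (adjusted p = 0.312), naive replicate 2 (0.220), sOVA host replicate 1 (0.0983), WT host replicate 1 (0.0692) or WT host replicate 2 (0.0673), and without the detection filter (0.0595). Over all alternatives that adjusted p ran from 0.00774 to 0.312.

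The other 2 mismatch probes called lower in sOVA host cells were of miR-30c-5p, among them C2G. C2G fell by 2.36 (SE 0.61, limma adjusted p = 0.0382) and in WT host cells by 2.54 (SE 0.67, adjusted p = 0.0418). The other of the 2 was not well above background on all arrays, so it passed the filter only through a group in which it was high. Both calls on C2G were lost without naive replicate 1 (limma adjusted p = 0.259 and 0.248), naive replicate 2 (0.157 and 0.149), WT host replicate 1 (0.0557 and 0.0744), WT host replicate 2 (0.0537 and 0.237) or sOVA host replicate 1 (0.0623 and 0.0666). Without the detection filter the one in WT host cells was lost (0.0655), and over all alternatives the adjusted p ran from 0.00245 to 0.259 and from 0.00298 to 0.248. The miR-30c-5p parent had -0.80 (adjusted p = 0.221) and -0.50 (adjusted p = 0.485). For miR-16-5p, parent and probes had opposite signs in the median. The parent had -0.03 in sOVA host cells and -0.22 in WT host cells, while the medians of its 22 mismatch probes were 0.40 and 0.19. In the main fit neither miR-16-5p nor any of its probes was called, nor were let-7a-5p, miR-26a-5p and miR-27a-3p or their mismatch probes. With the slide row as a block limma called 5 parents in WT host cells and 6 in sOVA host cells, which are not all named here.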

How the data were processed

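Small RNA of 7 samples was hybridised to 7 one-colour (Cy3) arrays on 1 slide read at 1 scan time. Per the labels' protocols, RNA was extracted with Trizol and labelled with an Exiqon kit, and the design text names 250 ng. Per the file headers, the deposited scanner files give linear intensity for each spot without normalization across arrays. They name Agilent Feature Extraction 9.5.1.1, and the submitters' processing notes name 10.6. The deposited value table holds neither these probes nor their parents and was not used.

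From the scanner files, mean signal minus local background median was taken per spot, outlier-flagged spots were left out, and each mismatch probe was divided by its parent's mean on the same array. Each mismatch sequence was aligned to its parent's without gaps. Ends were the 3 positions at either side. Differences were taken within parent and array and tested over arrays by exact sign-flip or permutation tests (Python 3.11.15, scipy 1.17.1). For levels, log2 of the scanner's processed signal, the spots of a probe averaged, was scaled to each array's 75th percentile, taken over 394 probes that every array detected. Of 2155 probes, 573 passed detection on all arrays of 1 or more groups. limma 3.58.1 (R 4.3.3) was fitted to these 573 only, with Benjamini-Hochberg adjustment over them. On simulated data for sOVA host against naive with 573 features, 95.5% of changes of 2 log2 units were called and 1.42% of unchanged features. The simulated features were independent, all had the same spread, and no array was dim. The data differ in each of these, so the rates do not carry over to them.

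The mismatch probes, comparisons and lists were chosen with earlier results of these data known. The probes named are every parent, for each of the 3 brightest detected parents the mismatch probes with the lowest and highest median and those in the middle, and any above 100% on all arrays. Others are named as chosen after their values were seen. Alternatives covered the signal column, background, detection, end width, summary, parents, scaling, slide row and each array left out. The planned comparison of wobble with other mismatches had no members. The number of arrays limits the precision.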

Additional observations from a re-analysis of the deposited data

Results flagged for a closer look

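The A14T mismatch probe of miR-7b-5p stood out in data outside the percent comparisons, since its parent was not detected. Its median signal over the 7 arrays was 2689, against 23.2 or less for the parent on each array. A cause was not tested. The sequence match to the probe for miR-7a-5p is given in the report. No group held 4 or more arrays, so no array was tested as an outlier within its group.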

How the results depend on the processing

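Of 119 recomputations of the percent results, 109 were counted as unchanged, by direction and, where a p was computed, by the side of the threshold. The result by brightness has no p. The comparisons of WT host and naive, of sOVA host and naive and of the hosts could not reach 0.05 with so few arrays. Nor could activated against naive with any array left out. For these the side of the threshold was fixed in advance, so the tally is no measure of stability. The differences of ends and interior and of lost G or C and lost A or T ran from 31.4 to 32.6 and from -11.4 to -10.9 points with each array left out. Without both dim arrays (the last replicate of either host, chosen after seeing the data) they were 33.0 and -10.9, both with p = 0.0625 in the exact sign-flip test, the smallest that 5 arrays allow. The difference between the probe's sides was 4.09 points with means over probes (exact p = 0.0156), 1.84 without miR-21a-5p (0.0469), 1.18 to 1.82 with each array left out (0.0313 without naive replicate 1) and -1.66 without UC1004653 (0.0156). The difference by brightness was 7.67 points with means, 21.5 without miR-21a-5p, 3.18 without UC1004653, 6.50 to 6.92 with each array left out and -8.92 with all parents above 0. The cause was not tested.

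The limma counts were less stable. With each array left out they ran from 39 to 264 (WT host against naive), 33 to 209 (sOVA host against naive) and 0 to 69 (between hosts). The highest of each, 264, 209 and 69, came without sOVA host replicate 3. The counts were lower than the 90 and 107 reported without naive replicate 1 (39 and 37) or naive replicate 2 (46 and 33), and 48 and 49 for WT host against naive without its replicates 1 and 2. Without both dim arrays they were 230, 291 and 57, and with the slide row as a block 201, 209 and 0. Without the detection filter the hosts differed in 1 probe. The replicate number as a block gave 248, 178 and 26 calls. Deviations of same-numbered arrays from their group means correlated between -0.656 and 0.396. In a group of 2 arrays these deviations mirror each other. The correlations therefore cannot tell whether the numbers pair the arrays, and the block is given here only. The split of sOVA host against naive was 70 higher and 37 lower as reported, 49 and 77 with scaling over all probes, and 58 and 65 with quantile normalization, which moved the median log2 difference from 0.05 to -0.53 and -0.15. That of WT host against naive was 61 and 29, and 56 and 16 after normexp. miR-21a-5p rose under all of these. The comparison of wobble with other mismatches gave no value, since no probe holds a wobble. Percents under about the level of an empty spot, up to 0.814% of the dimmest parents, cannot be ranked.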

Other observations

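The G17C probe of UC1004653 kept 28.7% on sOVA host replicate 2, against 59.0% to 69.3% on the 6 other arrays. It is a single spot that the scanner software did not call an outlier.

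At target bases 1 to 3 of the 7 parents with a miRNA seed, 10 of 21 mismatch probes kept a higher percent on every activated array than on either naive array, and 0 of 21 a lower one. At probe positions 1 to 3, the other end of the same duplexes, 2 of 21 were higher and 10 were lower. Of their interior probes, 71 of 112 were higher and 1 was lower, probes at background included. The 3 parents without a miRNA match had 3 of 43 interior probes higher and 12 lower. The shares over all 215 probes were 40% and 14.9%, and no difference between these places was tested.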
